A study of Mus musculus with 2 samples.

Results

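The genes described here encode the enzymes of glycolysis and the citric acid cycle, with the pyruvate dehydrogenase complex and its kinases, pyruvate carboxylase, the malic enzymes and glutamate dehydrogenase. They were listed by name and function, with no limit on the binding values, and all 42 listed genes were found among the 22367 protein-coding genes of the annotation. Binding of Rfx6, a transcription factor of the RFX family, was mapped by ChIP-seq in the mouse β cell line Min6b1. One library came from cells transfected with the pCMV-Tag2A-3HA-Rfx6 plasmid, which encodes Rfx6 with an HA tag, and harvested 2 days later, and the other came from Min6b1 cells as control, both precipitated with the HA antibody 12CA5. With 1 library per condition there is no replicate error, and no test between conditions was possible. The tagged protein was expressed from a plasmid in a cell line, and the deposited values are binding peaks without expression values, so the identity of the cells could not be checked by marker genes. MACS kept 33949757 of 49443917 reads of the 3HA-Rfx6 library and 3567375 of 16911298 reads of the control, and the control therefore limits the precision of every fold enrichment below.

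Glycolysis splits glucose into pyruvate in the cytosol, and the citric acid cycle oxidises the acetyl groups made from pyruvate in the mitochondria. In β cells this flux couples the glucose level to ATP production, closure of the KATP channel, calcium entry and insulin secretion. Part of the pyruvate enters the cycle through pyruvate carboxylase, and malate and glutamate can feed or leave the cycle as well. RFX factors bind the X-box, an inverted repeat whose arms resemble GTTNCC and its reverse complement.

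Of the 42 genes, 19 had the summit of a 3HA-Rfx6 peak within 1 kb of the gene start, which is 45.2% (95% Wilson interval 31.2 to 60.1%). Among all protein-coding genes the share was 20.1%. Within 10 kb of the start the count was 21 of 42, against 35.7% of all genes. Within 50 kb of the gene it was 35 of 42, or 83.3% (69.4 to 91.7%), against 67.8% of all genes. When any protein-coding transcript start was accepted, 20 genes had a summit within 1 kb, against 22.6% of all genes, and 23 had one within 10 kb, against 37.6%. The members stood above the background most clearly next to the start, at 2.25 times the share of all genes. The share within 1 kb among 39 other genes of the pathway, described at the end, was 25.6%. Only 2 further members, Aldoa and Cs, were added between 1 and 10 kb, where the interval of 35.5 to 64.5% took in the share of all genes. The intervals cover counting error only, and genes of 1 library are not replicates.

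**Figure D1:**
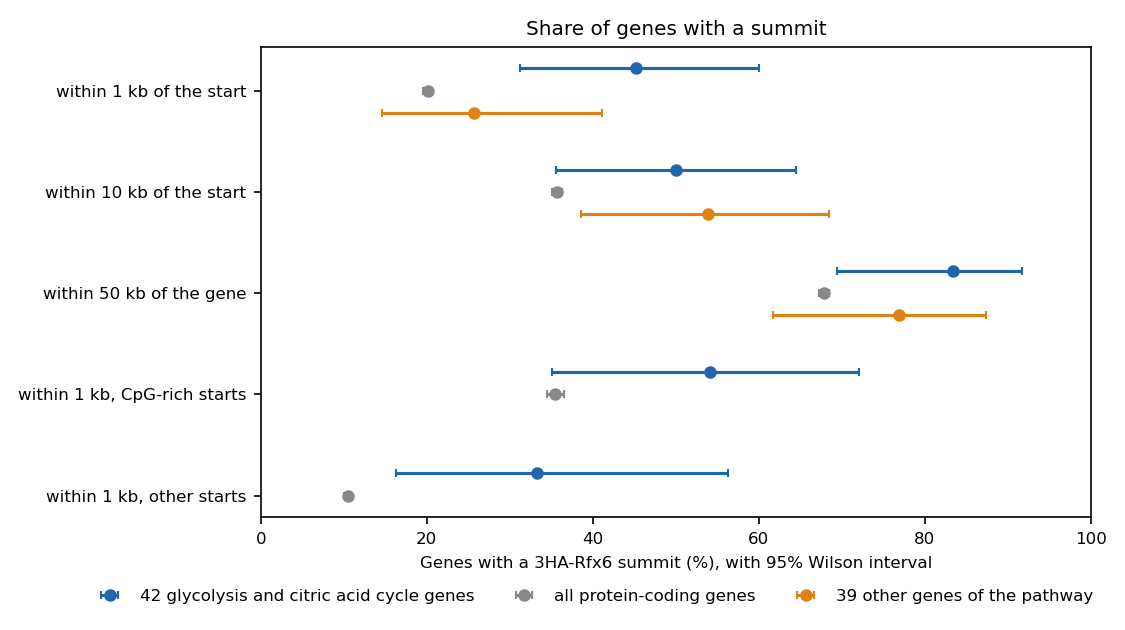
Share of genes with a 3HA-Rfx6 summit, in percent, for the 42 genes, all protein-coding genes and 39 other genes of the pathway. Points are shares and bars are 95% Wilson intervals. Within 1 kb of the start the 42 genes lie at 45.2% and all genes at 20.1%, while within 10 kb the interval of the 42 genes begins at 35.5% and all genes lie at 35.7%.

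The starts of the members were richer in CpG than those of other genes, which bears on a count of summits at starts. In the 1 kb around the start, 24 of the 42 members (57.1%) were CpG-rich, defined by a GC content of at least 55% and an observed over expected CpG ratio of at least 0.6, against 38.5% of all genes. Among the CpG-rich starts, 13 of 24 members had a summit within 1 kb, against 35.5% of all genes with such a start. Among the other starts the count was 6 of 18, against 10.5%. The members' share was above that of all genes in both classes. For the CpG-rich starts the interval of 35.1 to 72.1% still took in the background, and for the other starts the interval of 16.3 to 56.3% did not. The CpG-poor class is not uniform for the members, since Pfkl, Idh3b, Suclg1 and Mdh1, which had a summit at the start, and Sucla2, which had none, missed only the limit on GC content. The part of CpG content in the count at the starts was not tested.

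Gene length moves with the count within 50 kb, since a long gene offers more sequence. The members were longer than other genes, with a median of 23.2 kb against 15.4 kb. Among the genes under 10 kb all 10 members had a summit within 50 kb, against 56.7% of all genes of that length. From 10 to 30 kb the count was 15 of 18, against 73.1%. From 30 to 100 kb it was 8 of 10, against 76.1%, and over 100 kb 2 of 4, against 78.6%. The members thus exceeded genes of like length mainly among short genes. With 4 to 18 members per class these counts carry wide intervals, from 72.3 to 100% for the shortest class and from 15.0 to 85.0% for the longest.

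In all, 127 of the 23308 peaks had their summit within 50 kb of a member, and 1 of them lay near both Tpi1 and Eno2. These peaks held a median of 71 reads of the 3HA-Rfx6 library (range 30 to 604), and all peaks held a median of 73. Their median fold enrichment over the background modelled from the control was 8.0, and that of all peaks was 8.54. Of the member peaks 11 (8.66%) held 200 reads or more, against 7.99% of all peaks. The members were therefore not set apart by the reads or the fold enrichment of their peaks. Another gene had the nearest start for 83 of the 127 peaks, and a member for 44. Counted by gene, 22 of the 42 members were the nearest start for such a peak, against 42.2% of all genes. The summit lay in an intron for 60 peaks, between genes for 40, in a coding exon for 18 and in an untranslated exon for 9. Of the 18 in coding exons, 5 were in exons of members and 13 in exons of their neighbours. These places were not set beside those of all peaks.

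**Figure D2:**
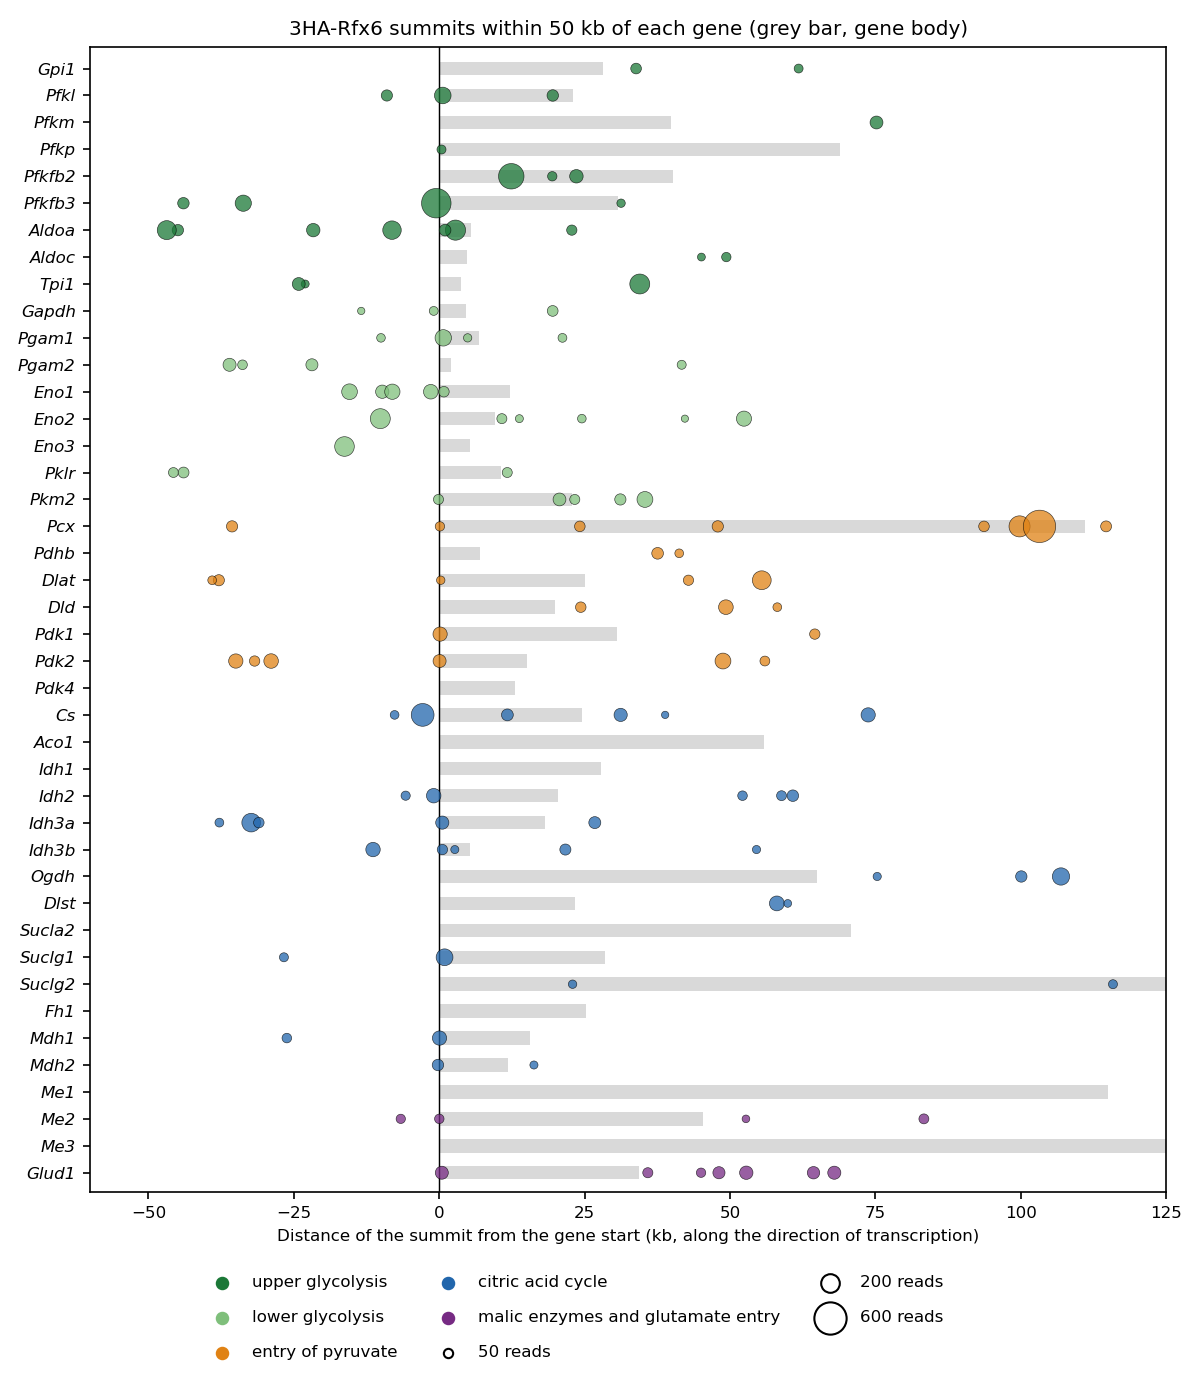
Position of each 3HA-Rfx6 summit within 50 kb of the 42 genes, in kb from the gene start along the direction of transcription. Grey bars are gene bodies, which for Suclg2 and Me3 run past the edge, the area of a circle is proportional to the reads of the peak, and colours mark the step of the pathway. A column of circles stands at the start of 19 genes, the largest circle lies 103 kb inside Pcx, and 7 genes have none.

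X-boxes were sought on both strands of a 200 bp window centred on the summit. The strict form had the arms GTNRCC and RGYAAC and a gap of at most 3 bases. Here R stands for A or G, Y for C or T and N for any base. The strict form was found in 10 of the 127 member peaks, or 7.87% (4.33 to 13.9%). Over all peaks the share was 6.42%, and in windows of the same width 1 kb to the right of every summit it was 0.253%. The members' peaks therefore held the strict X-box about as often as other peaks. A relaxed form, of RYYNYY and RRNRAC with a gap of 1 to 3 bases, was also sought. It is looser than the strict form at most letters but stricter at 1 letter and in the gap. A strict X-box therefore need not match it, as in the peaks near Gapdh and Idh2. The relaxed form was present in 56 member peaks (44.1%), against 45.9% of all peaks and 22.8% of the shifted windows. The half-site GTTNCC was present in 83 (65.4%), against 58.3% and 29.3%. The half-site can lie within either form of the X-box. These matches describe letters in a window and do not show that Rfx6 is bound to them.

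The 11 strict X-boxes are printed from the NCBIM37 (mm9) genome because they are the clearest sequence feature of the members' peaks. Each line gives the member within 50 kb, the position and the box in capitals with 8 flanking bases on either side, and the strand on which it reads 5′ to 3′ follows in the text. They were chosen after their values were seen.
Mdh1, chr11:21472285-21472313: gctgcctcGTCGCCTAGCAACggtgaagc
Tpi1 and Eno2, chr6:124729889-124729917: ttggcctcGTAACCTGGCAACtactgagc
Gapdh, chr6:125096975-125097003: gatggctgGTAACCAGGCAACaggacagg
Pfkfb2, chr1:132602227-132602256: cctgtcctGTGACCCTGGCAACcaagacag
Pgam2, chr11:5725602-5725630: gatagcctGTTGCCAAGCAACctggacct
Pgam2, chr11:5662031-5662059: ccgtgaccGTGGCCGAGTAACtgaccgtg
Dld, chr12:31986980-31987008: accttgctGTTGCCAGGTAACtgtggggc
Pdk1, chr2:71775889-71775917: cccccacaGTTACCAGGCAACagccaggc
Pdk1, chr2:71775925-71775953: tcccctcaGTTACCTGGCAACagtcaggt
Idh3b, chr2:130055636-130055664: agggtcagGTTGCCTGGCAACaatgttgc
Idh2, chr7:87199412-87199441: gcctgtggGTGGCCATAGCAACtgcagcgc
The boxes beside Mdh1, Tpi1 and Eno2, and Idh2 and the first of Pgam2 are printed from the minus strand and the others from the plus strand. The box was 13 bases long in 9 cases and 14 bases in 2, and its right arm was GGCAAC in 6. In 8 of the 11 the box lay within 20 bases of the summit. Only that of Mdh1 lay within 1 kb of a member's start. For every other peak with a box, a gene outside the list had the nearest start. In the order printed these genes were Lrrc23, Iffo1, Yod1, Polm, Urgcp, Gm11053, Rapgef4 for both Pdk1 boxes, Tmc2 and Zfp710.

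In the upper part of glycolysis, which takes glucose phosphates to triose phosphates, all 9 genes had a summit within 50 kb, against 67.8% of all genes. Within 1 kb of the start 3 had one, against 20.1%. The counts by step rest on few genes and were not tested. Pfkfb3 led. It encodes one of the bifunctional enzymes that make and break the strongest allosteric activator of phosphofructokinase. Its peak held 502 reads at a 32.8-fold enrichment, 498 bp upstream of the start, and only 0.378% of all peaks held as many reads. The exact 95% Poisson interval of this read count was 459 to 548. The deposited false discovery rate (FDR) of the peak was 10.2%, the highest of the member peaks, against a median of 3.06% over all peaks. How this rate moves with the score is described below. A further peak of 152 reads (15.1-fold) lay 33.7 kb upstream of Pfkfb3, and no other gene start lay nearer to it.

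Pfkfb2, which encodes a related bifunctional enzyme, had no summit within 10 kb of the gene start but a strong one in intron 2. This peak held 374 reads at 32.0-fold, 12397 bp downstream of the gene start and 1035 bp upstream of the start of a shorter transcript of Pfkfb2. The start of Yod1 was closer, at 471 bp. A second Pfkfb2 peak of 105 reads (13.9-fold) in intron 7 held the strict X-box shown above, 5 bases from the summit. The peaks beside Pfkfb3 and Pfkfb2 were thus among the highest of the members. Measured from the gene start, the first lay upstream and the second within the gene. Both lay upstream of a transcript start of their gene.

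The 3 phosphofructokinase genes, which encode the subunits of the committed step of glycolysis, differed. At Pfkl, the liver-type subunit, a peak of 159 reads (13.9-fold) lay in intron 1, 615 bp from the start. Pfkp, the platelet-type subunit, had 1 peak, of 47 reads (6.59-fold), 288 bp from the start in intron 1. Pfkm, the muscle-type subunit, had no summit nearer than 70.7 kb to its start, and its only peak within 50 kb of the gene, of 96 reads, lay 35.3 kb beyond the gene, 10 bp from the start of AI836003. The liver- and platelet-type genes therefore carried a summit at the start, and the muscle-type gene did not.

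The aldolase genes, whose enzymes cleave fructose bisphosphate, also differed. Aldoa had 7 summits within 50 kb, of which 1 of 234 reads (25.8-fold) lay 2804 bp from the start in intron 2 and 1 of 79 reads (6.59-fold) at 1010 bp, just outside the 1 kb limit. The latter was 295 bp from the start of another Aldoa transcript. The peak with the highest fold enrichment of all member peaks, 39.1-fold with 208 reads, lay 46.9 kb upstream of Aldoa, but in the first exon of Doc2a, 190 bp from the start of that gene. Aldoc, the brain-type aldolase, had no summit nearer than 45.1 kb. Gpi1, which encodes glucose phosphate isomerase, had its nearest summit 33.9 kb from the start, 238 bp from the start of Pdcd2l. For Tpi1, triose phosphate isomerase, the nearest was at 23.0 kb, and the peak of 229 reads (18.4-fold) that it shares with Eno2 was 71 bp from the start of Lrrc23.

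In the lower part of glycolysis, which takes triose phosphate to pyruvate, all 8 genes had a summit within 50 kb, against 67.8% of all genes. Within 1 kb of the start 4 had one, against 20.1%. Pgam1, the common phosphoglycerate mutase, had a peak of 155 reads 701 bp from the start in intron 1, at a fold enrichment of 5.99. Many reads thus went with a low enrichment there. Pgam2, the muscle-type mutase, had its nearest summit 21.9 kb from the start, and its 4 peaks within 50 kb held 47 to 98 reads.

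Of the enolase genes, Eno1 had 5 summits within 50 kb, and it was the nearest start for each of them. They held 65 reads 807 bp inside the gene, then 123 at 1445 bp, 135 at 8056 bp, 102 at 9792 bp and 142 at 15418 bp upstream. The peaks at 8056 and 15418 bp upstream were 20.2-fold and 19.3-fold and the peak inside the gene 4.94-fold, so the strongest values stood upstream and not at the start. For Eno2, the neuronal enolase, the summit nearest to the gene start was that of the peak beside Lrrc23, 10125 bp upstream. A peak of 58 reads (7.18-fold) past the end of Eno2 was 9485 bp from the start of a shorter transcript of that gene, but nearer to the start of Atn1. Eno3, the muscle enolase, had 1 peak, of 222 reads (22.8-fold), 16.4 kb upstream in a coding exon of Gp1ba.

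Gapdh, whose enzyme oxidises glyceraldehyde phosphate, had a peak of 46 reads (8.0-fold) 937 bp upstream of the start. Of the pyruvate kinase genes, Pkm2 had a peak of 59 reads (4.34-fold) 122 bp upstream of the start, and a peak of 145 reads (11.8-fold) 35.4 kb downstream, within Gramd2. Pklr, which encodes the liver and red cell pyruvate kinase, had its nearest summit 11.7 kb from the start, past the end of the gene in a coding exon of Hcn3, with 58 reads (4.94-fold).

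At the entry of pyruvate into mitochondrial metabolism, 6 of 7 genes had a summit within 50 kb, against 67.8% of all genes. Within 1 kb of the start 4 had one, against 20.1%. Pcx encodes pyruvate carboxylase, which makes oxaloacetate and is abundant in β cells. It had 8 summits within 50 kb, the most of any member, and 6 of them lay inside the gene. The peak at its start, 127 bp into the gene, held 51 reads (6.59-fold). The member peak with the highest count, 604 reads (24.9-fold), lay 103 kb into Pcx, in intron 11. It ranked 44 by reads among all peaks and 1358 by fold enrichment. Its summit was also within a coding exon of Lrfn4, a gene nested in that intron, whose start was 1946 bp away. A second peak in intron 11, of 256 reads (19.5-fold), was 5379 bp from the same start. The Pcx peaks with the most reads were therefore in its distal introns, where another gene lies, and not at its own start.

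The kinases that switch off pyruvate dehydrogenase by phosphorylation differed among themselves. Pdk1 had a peak of 117 reads (13.4-fold) 157 bp from the start in its first exon, and Pdk2 one of 98 reads (11.1-fold) at 68 bp. Pdk4 had no summit within 50 kb, and the nearest was at 86.5 kb. Of the enzyme complex itself, Dlat, the acetyltransferase subunit, had a peak of 41 reads (4.0-fold) 267 bp from the start, the lowest of the peaks at the members' starts. A peak of 204 reads (25.9-fold) within 50 kb of Dlat lay 397 bp from the start of Timm8b. Pdhb and Dld, which encode another subunit and the shared dihydrolipoamide dehydrogenase, had their nearest summits at 37.6 and 24.4 kb, in introns of Pxk and Lamb1.

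In the citric acid cycle 10 of 14 genes had a summit within 50 kb, close to the 67.8% of all genes. Within 1 kb of the start 6 had one, against 20.1% of all genes. Cs encodes citrate synthase, which opens the cycle. It had no summit within 1 kb, but a peak of 299 reads at a 37.1-fold enrichment 2843 bp upstream of the start, with Cs as the nearest start. Only Pcx, Pfkfb3 and Pfkfb2 had a peak with more reads.

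The windows of 120 bases at the summits beside Pfkfb3, Cs and Pfkfb2 are shown because these peaks led by reads close to a member's own start or transcript start, a choice made after their values were seen. Capitals mark matches of the relaxed X-box or of GTTNCC, and each is given on the strand of the gene, which is plus for Cs and minus for the other two.
Pfkfb3, chr2:11424166-11424285: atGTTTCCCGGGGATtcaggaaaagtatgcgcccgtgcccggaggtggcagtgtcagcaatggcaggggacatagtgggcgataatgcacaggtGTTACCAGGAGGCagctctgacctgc
Cs, chr10:127771985-127772104: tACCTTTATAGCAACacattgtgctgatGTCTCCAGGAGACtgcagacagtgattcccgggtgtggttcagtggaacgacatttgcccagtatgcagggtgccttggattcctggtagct
Pfkfb2, chr1:132613373-132613492: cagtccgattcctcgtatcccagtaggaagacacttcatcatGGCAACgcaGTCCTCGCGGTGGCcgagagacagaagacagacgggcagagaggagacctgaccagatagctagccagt
None of these windows held the strict X-box, and each held the relaxed form. The relaxed form was found in 45.9% of all peaks, so its presence does not set them apart.

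The isocitrate dehydrogenases make α-ketoglutarate. Idh3a and Idh3b, subunits of the NAD-dependent mitochondrial enzyme, had peaks of 100 reads (6.83-fold) 531 bp and 62 reads (8.71-fold) 559 bp from their starts. Idh2, the NADP-dependent mitochondrial enzyme, had one of 121 reads (9.65-fold) 946 bp upstream. Idh1, the cytosolic enzyme, had its nearest summit 125 kb upstream. The 3 mitochondrial genes of the list thus carried a summit at the start and the cytosolic one did not. Idh3g, the remaining subunit of the NAD-dependent enzyme and not among the 42, had summits within 50 kb but none within 10 kb of the start. A higher peak near Idh3a, of 201 reads (10.7-fold), lay 32.3 kb upstream in intron 2 of Cib2.

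The malate dehydrogenase genes both had a summit at the start. Mdh1, which encodes the cytosolic enzyme of the malate-aspartate shuttle, had a peak of 118 reads at 22.6-fold, 57 bp from the start. The summit also lay in the first exon of Wdpcp, transcribed in the opposite direction, whose start was 132 bp from that of Mdh1. The strict X-box of the peak was 8 bases from the summit. Mdh2, the mitochondrial enzyme of the cycle, had a peak of 76 reads (5.70-fold) 211 bp upstream. Its summit lay in the first exon of Styxl1, also transcribed in the opposite direction, and 116 bp from the start of that gene. With each peak assigned only to the gene with the nearest start, 18 members in place of 19 had a summit within 1 kb, since Mdh2 was lost, against 18.3% of all genes.

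Suclg1, the subunit common to both succinyl-CoA synthetases, had a peak of 163 reads (16.5-fold) 923 bp from the start in intron 1. Of the subunits that set the nucleotide used, Suclg2 had 2 peaks of 41 and 47 reads in introns 1 and 2, 22.9 and 116 kb from the start, and Sucla2 had none within 50 kb, the nearest being at 71.9 kb. Ogdh and Dlst, of the α-ketoglutarate dehydrogenase complex, had their nearest summits 75.3 and 58.1 kb from the start, and their peaks within 50 kb of the gene lay in or near Zmiz2 and Pgf. Fh1, fumarate hydratase, and Aco1, the cytosolic aconitase, had none within 50 kb, with the nearest summits at 66.7 and 168 kb.

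Of the enzymes that connect malate and glutamate with the cycle, Glud1 and Me2 had a summit at the start and Me1 and Me3 did not. Glud1, glutamate dehydrogenase, had a peak of 98 reads (7.93-fold) in its first exon, 451 bp from the start, and 7 summits within 50 kb. Me2, a mitochondrial malic enzyme, had one of 52 reads (4.94-fold) 18 bp from the start. Me1, the cytosolic malic enzyme, and Me3, the other mitochondrial one, had their nearest summits 185 and 190 kb upstream of the start.

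**Figure D3:**
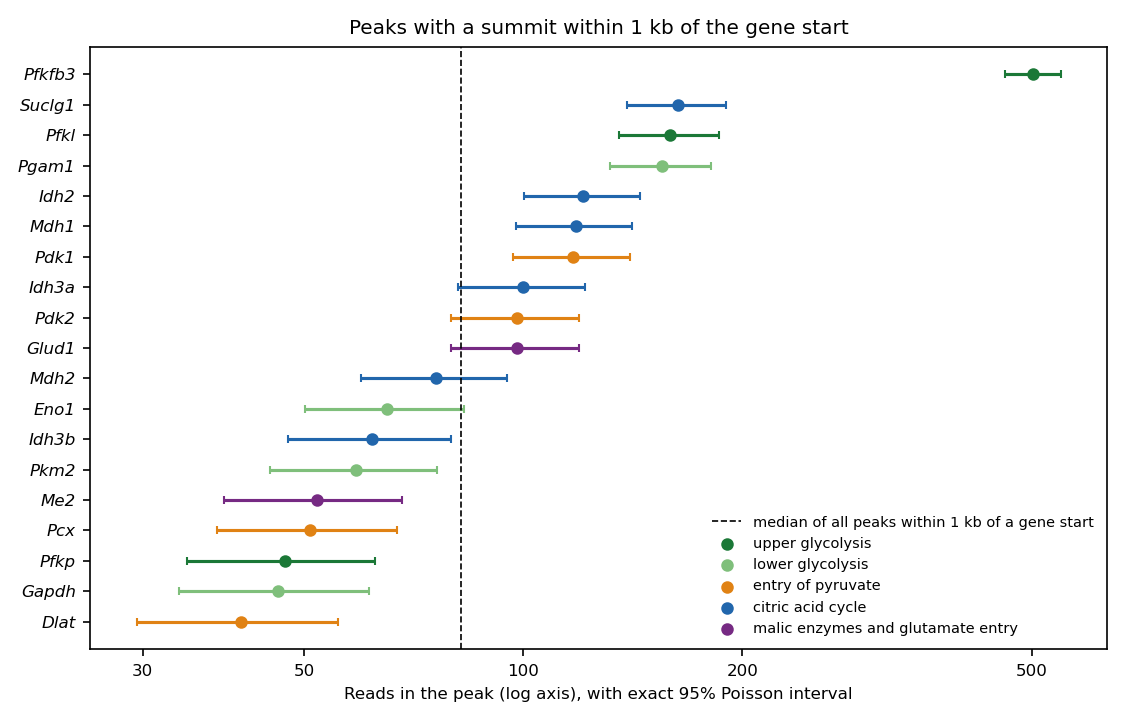
Reads of the 3HA-Rfx6 library in the 19 peaks with a summit within 1 kb of a member's start, on a log axis. Bars are exact 95% Poisson intervals of the count, the dashed line is the median of 82 reads over all peaks within 1 kb of a gene start, and colours mark the step of the pathway. Pfkfb3 stands alone at 502 reads, and the other 18 genes lie between 41 and 163.

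The 19 peaks at the starts held a median of 98 reads, against 82 for the 4151 peaks within 1 kb of any gene start, and their median fold enrichment was 7.93, against 8.94. Of the 19, 10 were above 82 reads and 9 below. The counting interval lay wholly above it for Pfkfb3, Suclg1, Pfkl, Pgam1, Idh2, Mdh1 and Pdk1, and wholly below it for Idh3b, Pkm2, Me2, Pcx, Pfkp, Gapdh and Dlat. A fold enrichment of 10 or more was reached by 6 of them, namely Pfkfb3, Mdh1, Suclg1, Pfkl, Pdk1 and Pdk2. The summits were thus more frequent at these starts, while the medians of their peaks lay above the background in reads and below it in fold enrichment.

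Most of these summits lay inside the gene. Of the 19, 14 (73.7%) were downstream of the start and 5 upstream, and over all genes 66.8% were downstream. The median position was 157 bp into the gene, against 173 bp over all genes. By the annotation, 7 were in an intron, 8 in an exon and 4 between genes. These classes take in exons of any gene. The exon was one of Styxl1 for the summit upstream of Mdh2, and the Mdh1 summit lay in an exon of Wdpcp. The strict X-box was within 100 bp of the summit in 1 of the 19, that of Mdh1, and in 5.78% of all peaks at gene starts. The relaxed form was present in 8 of 19, against 39.1%, and the half-site in 8 of 19, against 53.3%.

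**Figure D4:**
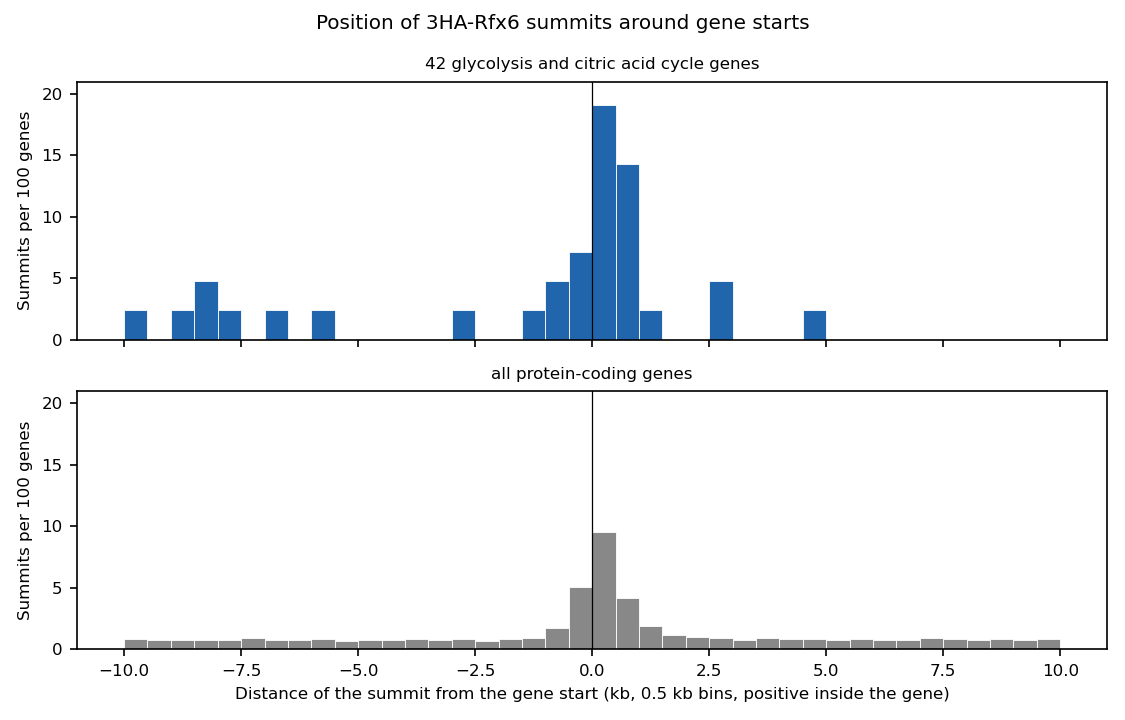
Summits per 100 genes in bins of 0.5 kb around the gene start, for the 42 genes above and all protein-coding genes below, with positive distances inside the gene. The highest bin is that from 0 to 0.5 kb in both, at 19.1 summits per 100 members and 9.51 per 100 genes, and the next bin holds 14.3 against 4.17.

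The profile around the start had the same place of maximum in both sets. From 0 to 0.5 kb there were 8 summits at members, and from 0.5 to 1 kb there were 6. From 1 to 10 kb on either side there were 13 summits at members, or 31.0 per 100 genes, against 29.8 per 100 of all genes, so the members were close to the background there.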

How the data were processed

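The members and gene lists were chosen with earlier results of these data known. According to the submitters' processing notes, CASAVA 1.8.2, Bowtie and MACS 1.4.2 were used with mm9, and the version of Bowtie is not given in the sources used here. The authors called peaks with a p-value cutoff of 1e-05, and at most 1 read per position was kept. The deposited count is the reads of the 3HA-Rfx6 library in a peak, without normalization. It covers the whole width of the peak and is not the height at the summit. The deposited fold is the ratio to a background modelled from the control. The deposited score is minus 10 times the log10 of the p-value, and the deposited FDR, in percent, comes from exchanging both libraries. The control growth text in the labels repeats the transfection, but its cell type is given as Min6b1 cells.

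Summits were compared with the 5′ ends and bodies of protein-coding genes of GENCODE M1 on NCBIM37, with limits of 1 kb, 10 kb and 50 kb. Shares have 95% Wilson intervals. The strict and relaxed X-box and the half-site were searched on both strands. Every member is named. Values are given for those with a summit within 10 kb of a start or among the 10 with the highest peaks, and others in brief. The search and assignment were tested on simulated data. Python 3.11.15, numpy 2.4.6, pandas 2.3.3, scipy 1.17.1, pysam 0.24.0, samtools 1.23.1 and matplotlib 3.10.9 were used.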

Additional observations from a re-analysis of the deposited data

How the results depend on the processing

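Of 26 alternatives, 12 stayed within 1.5 times the count or within the counting interval of the value reported, and 14 did not. For the genes the tally compares counts and not shares, so a smaller set of peaks lowers a count whatever the share of all genes. The relaxed form and the half-site were set against the interval of the strict form. The tally is therefore not a measure of how far the members' excess holds. Limited to the 50% of peaks with the highest scores, 10 members had a summit within 1 kb of the start (11.7% of all genes) and 13 within 10 kb (21.6%). With a fold enrichment of at least 10 these counts were 6 (8.65%) and 9 (17.2%). An FDR of at most 1% was met by 10 peaks in the list. It left 0 members within 1 kb (0.00447% of all genes) and 0 within 10 kb (0.0179%). Within 50 kb it left 1, Pcx (0.125%). This FDR is not ordered by score. The 10 peaks lie above a score of 3100, which 77 peaks share with an FDR of 25.3%. Below that score, high scores could also carry a high FDR. The peaks beside Pfkfb3, Pfkfb2 and Cs, with scores of 2248, 1989 and 1736, had an FDR of 10.2, 8.26 and 7.71%. The member peak with the lowest score, 50.0 beside Pkm2, had 1.75%. Of the members, 22 had a peak within 50 kb for which they were the nearest start (42.2% of all genes). Added after seeing the data, a summit inside the gene was found in 19 (31.3%). The X-box share was 44.1% for the relaxed form and 65.4% for the half-site. Median reads were 121 in member peaks with a fold of at least 10. The Pcx peak, 44 by reads, ranked 1358 by fold enrichment and 1 by score. Also added after seeing the data were the nearest start and CpG-rich starts, given above. No paired analysis was possible because each condition had 1 library, and no library could be left out. The shallow control limits the fold enrichments, and this limit was not measured.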

Other observations

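A further 39 genes of glucose and mitochondrial carbon metabolism, listed with earlier results known, were counted in the same way. Of these, 10 (25.6%, 14.6 to 41.1%) had a summit within 1 kb of the start, against 20.1% of all genes. This interval took in the share of all genes. Within 10 kb the count was 21 (53.85%), against 35.7% of all genes and 50.0% of the 42 members. Within 50 kb it was 30 (76.9%), against 67.8% of all genes. The 10 genes with a summit within 1 kb were Pfkfb1, Pck2, Pdpr, Sdha, Sdhb, Sdhd, Gpd2, Slc25a10, Brp44 and Brp44l. Slc25a10, the mitochondrial dicarboxylate carrier, had the highest of these peaks, with 334 reads (15.8-fold) 507 bp upstream of the start. Sdhd, a membrane subunit of succinate dehydrogenase, had 204 reads (25.9-fold) 449 bp upstream, in the peak that also lies near Dlat and Timm8b, and Sdha, the catalytic subunit, had 103 reads (13.7-fold). Brp44 and Brp44l, which encode the mitochondrial pyruvate carrier, had 61 and 101 reads at their starts. No summit lay within 50 kb of Pgk1, Pdha1, Pdk3, Pgk2, Bpgm, Fbp2, Pdha2, Mdh1b or Slc25a1. G6pc2, which encodes the islet glucose phosphatase, had 1 peak, of 113 reads (22.1-fold), 5002 bp from the start.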
